A study of Homo sapiens with 38 samples.

Results

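The genes described here are 10 genes of the Wnt pathway and its targets: CTNNB1, APC, AXIN1, AXIN2, TCF7, TCF7L2, LEF1, LGR5, ASCL2 and MYC. They were picked by name from what is known of the pathway, with earlier results of these data already seen, and all 10 were found among the 25504 genes with a unique name in the deposited expression table. Of these 10 genes, 6 had a mean of at least 1 FPKM over the libraries (fragments mapped to a gene, divided by exon length in kilobases and by library size) and entered the statistical tests with 10865 genes in all. The other members, APC, AXIN2, LGR5 and ASCL2, were below that level and are given as values.

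RNA was measured in RKO, a human colorectal cancer cell line that carries wild-type APC and CTNNB1. Cells received the vehicle DMSO alone, the LSD1 inhibitor NCD38 or 1 of 2 conjugates of NCD38 with a pyrrole-imidazole polyamide. The conjugates are named NCD38-β2P4 and NCD38-β2PIPP, and each inhibitor was at 2 µM by the sample labels. All cultures, also those with an inhibitor, contained 0.1% DMSO. RNA was collected on day 30 and on day 4, with 1 library for each of the 8 conditions and no replicate library. All groups were the same cell line, and the cultures, the library preparation and the run of a day cannot be told apart from the day itself.

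LSD1 removes methyl groups from lysine 4 of histone H3, and NCD38 inactivates it by attacking its flavin cofactor. The polyamides bind the minor groove of DNA: that of NCD38-β2P4 reads A or T bases in a row, and that of NCD38-β2PIPP reads CG between A or T bases. Both are joined to NCD38 through a linker of β-alanine, and they differ by a single ring, a pyrrole in NCD38-β2P4 and an imidazole in NCD38-β2PIPP.

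In the Wnt pathway, β-catenin is made continuously and destroyed continuously. A cytoplasmic complex built on the scaffolds AXIN1, AXIN2 and APC holds β-catenin for phosphorylation by casein kinase and GSK3, after which it is ubiquitinated and degraded. When Wnt ligands bind Frizzled and LRP receptors, the complex is disabled, β-catenin enters the nucleus and joins the TCF and LEF proteins on DNA. In the intestinal crypt this keeps stem cells dividing, and in most colorectal cancers the pathway is switched on by loss of APC or by stabilised β-catenin. AXIN2, LGR5 and ASCL2 are among the classical targets of the pathway in intestinal epithelium, and MYC is the target best known for driving growth. The messenger level of CTNNB1 does not report pathway activity, because control of β-catenin is exerted on the protein.

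The 8 libraries held an estimated 13500000 to 24700000 fragments each. Of the 10 markers of colorectal epithelium examined, KRT18 stood at 76.2 to 121 FPKM and CDX2 at 7.48 to 11.6, whereas KRT20, VIL1 and CDX1 were listed at 0 in all libraries and CDH1 reached at most 0.0642. Of 6 markers of other cell types, 4 were listed at 0 in all libraries and the sum over the list was at most 0.0661 FPKM. The libraries differed in relation to the GC content of transcripts: in the lowest 20% of expressed genes by GC content the median difference of day 30 minus day 4 was 1.35 on the log2 scale, and in the highest 20% it was -0.73. Within day 4, the median log2 ratio to DMSO of the lowest and the highest 20% was -0.35 and 0.24 for NCD38, and 0.78 and -0.12 for NCD38-β2PIPP.

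By mean level over the 8 libraries the genes were ordered MYC (179 FPKM), CTNNB1 (50.0), AXIN1 (25.8), TCF7 (9.93), LEF1 (6.82), TCF7L2 (2.97), APC (0.786), AXIN2 (0.297) and ASCL2 (0.0103), with LGR5 listed at 0. MYC stood apart from CTNNB1, since its lowest library (127) lay above the highest library of CTNNB1 (97.0). AXIN1 stood apart from TCF7 in the same way, and ASCL2 stood below AXIN2. The ranges of all other neighbours in this order overlapped. FPKM is divided by transcript length, which allows for length only, and the differences with GC content given above remain in these levels. The order also depended on the day. APC lay above AXIN2 in every day 30 library and below AXIN2 in every day 4 library.

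**Figure D1:**
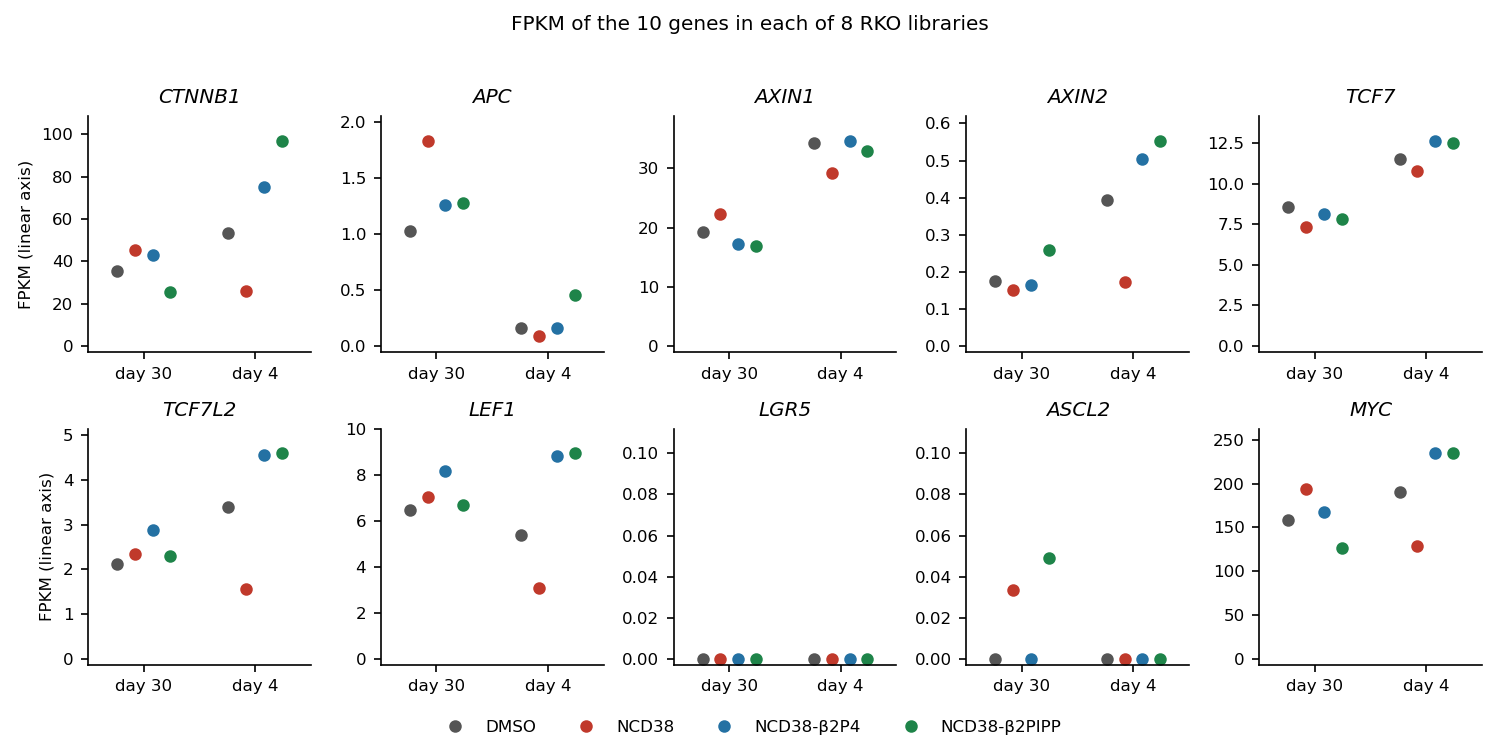
FPKM of each of the 10 genes (vertical axes, linear, from 0) in the 4 libraries of day 30 and the 4 of day 4, 1 point a library, coloured by treatment. AXIN1 and TCF7 lie higher in all day 4 libraries, APC lies higher in all day 30 libraries, and NCD38 on day 4 is the lowest or near the lowest library for CTNNB1, TCF7L2, LEF1 and MYC.

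CTNNB1 encodes β-catenin itself (chromosome 3, 41236232 to 41301587, plus strand, hg19). Its level on day 30 was 35.3 FPKM for DMSO, 45.2 for NCD38, 42.9 for NCD38-β2P4 and 25.5 for NCD38-β2PIPP. The day 4 libraries gave 53.3 FPKM for DMSO, 26.0 for NCD38, 75.0 for NCD38-β2P4 and 97.0 for NCD38-β2PIPP. The spread over treatments was wider on day 4, where the highest library was 3.73 times the lowest, than on day 30, where it was 1.77 times. The NCD38 library of day 4 lay at the level of the NCD38-β2PIPP library of day 30, so the days overlapped.

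Of the scaffolds, AXIN1 was expressed throughout and differed by day. AXIN1 (chromosome 16, 337440 to 402723, minus strand) was at 19.3, 22.2, 17.2 and 17.0 FPKM on day 30 (DMSO, NCD38, NCD38-β2P4, NCD38-β2PIPP). Its day 4 values were 34.3, 29.2, 34.7 and 32.9 FPKM. All 4 values of day 4 lay above all 4 of day 30, and within a day AXIN1 varied by 1.31 times on day 30 and 1.19 times on day 4.

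APC, the scaffold most often lost in colorectal cancer (chromosome 5, 112043215 to 112181936, plus strand), was low. Day 30 gave 1.02 FPKM for DMSO, 1.84 for NCD38, 1.26 for NCD38-β2P4 and 1.28 for NCD38-β2PIPP. Day 4 gave 0.161, 0.0924, 0.165 and 0.458 FPKM in the same order, all above the 0.0152 to 0.0208 FPKM that 3 fragments would give in those libraries. Every value of day 30 was above every value of day 4, and between the DMSO libraries APC was 6.36 times higher on day 30. APC has the lowest transcript GC content of the 10 genes, 39.6%, in the group of transcripts that were higher on day 30 as a whole.

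AXIN2, both a scaffold and a feedback target of the pathway (chromosome 17, 63524681 to 63557766, minus strand), was near the limit of what these libraries could measure. Its level on day 30 was 0.176 FPKM for DMSO, 0.150 for NCD38, 0.165 for NCD38-β2P4 and 0.260 for NCD38-β2PIPP. Its level on day 4 was 0.394, 0.173, 0.504 and 0.554 FPKM in the same order. These levels correspond to an estimated 9.06 to 34.2 fragments a library, and the NCD38 library of day 4 lay among the day 30 libraries.

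The TCF and LEF proteins carry β-catenin to DNA. TCF7 (chromosome 5, 133450372 to 133487556, plus strand) was at 8.55 FPKM for DMSO, 7.34 for NCD38, 8.17 for NCD38-β2P4 and 7.85 for NCD38-β2PIPP on day 30. The day 4 libraries gave 11.5, 10.8, 12.7 and 12.6 FPKM in the same order. The days did not overlap, and the treatments of a day lay within 1.16 times of each other on day 30 and 1.18 times on day 4.

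TCF7L2, the family member that serves the intestinal stem cell (chromosome 10, 114710006 to 114927437, plus strand), was at 2.13 FPKM for DMSO, 2.34 for NCD38, 2.88 for NCD38-β2P4 and 2.30 for NCD38-β2PIPP on day 30. In the same order, the day 4 libraries stood at 3.40, 1.56, 4.55 and 4.59 FPKM. NCD38 on day 4 was the lowest of the 8 libraries and the conjugates on day 4 were the highest.

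LEF1 (chromosome 4, 108968701 to 109090112, minus strand) was at 6.46 FPKM for DMSO, 7.03 for NCD38, 8.16 for NCD38-β2P4 and 6.70 for NCD38-β2PIPP on day 30. Day 4 gave 5.36, 3.07, 8.84 and 8.94 FPKM in the same order. As for TCF7L2, NCD38 on day 4 was the lowest library and the conjugates on day 4 were the highest. TCF7, TCF7L2 and LEF1 are transcribed from several starts and spliced into forms with and without the β-catenin binding part, and the table gives 1 value a gene, so these forms could not be separated.

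The stem cell markers were not detected above counting noise. LGR5, the R-spondin receptor that marks crypt base stem cells (chromosome 12, 71833578 to 71980090, plus strand), was listed at 0 in all 8 libraries, and 3 fragments would have given 0.0277 to 0.0507 FPKM. ASCL2, the transcription factor of the same cells (chromosome 11, 2289728 to 2291818, minus strand), was at 0.0334 FPKM (NCD38) and 0.0489 FPKM (NCD38-β2PIPP) on day 30 and was listed at 0 in the other 6 libraries. Both values of ASCL2 lay below the level of 3 fragments in their libraries.

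MYC, the transcription factor that raises ribosome production and growth (chromosome 8, 128747680 to 128755197, plus strand), was the most abundant of the 10 genes. Its day 30 level was 158 FPKM for DMSO, 194 for NCD38, 168 for NCD38-β2P4 and 127 for NCD38-β2PIPP. Its day 4 level was 190.1, 129, 234 and 234 FPKM in the same order. NCD38 was the highest library on day 30 and the lowest on day 4, and NCD38-β2PIPP was the lowest on day 30 and level with NCD38-β2P4 at the top on day 4.

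The days were compared with limma on log2(FPKM + 1), with the treatment as a term, so that the 4 pairs of libraries with the same treatment gave the error. Of the 6 members tested, AXIN1 and TCF7 were called at an adjusted p under 0.05 (Benjamini-Hochberg over all genes), both higher on day 4. Over all genes tested, 61.9% were called, 30.2% higher on day 30 and 31.7% higher on day 4, so 2 of 6 members called was no larger a share than that of all genes. AXIN1 was lower on day 30 by a log2 difference of -0.77 (SE 0.14, adjusted p = 0.0062) and TCF7 by -0.52 (SE 0.13, adjusted p = 0.017). These values describe 18.9 ± 2.42 against 32.8 ± 2.53 FPKM for AXIN1 and 7.98 ± 0.513 against 11.9 ± 0.898 for TCF7 (mean ± SD over the 4 treatments of a day, n = 4).

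For the other members the difference between the days did not pass the test. It was -0.62 for CTNNB1 (95% interval -1.66 to 0.42), -0.35 for TCF7L2 (-0.93 to 0.23), -0.26 for MYC (-0.87 to 0.35) and 0.18 for LEF1 (-0.45 to 0.82), all day 30 minus day 4 on the log2 scale. The values of day 30 and day 4 did not overlap for the same 2 of 6 members, against 62.6% of all genes. With no filter on level, 7827 of 17976 genes were called in limma. Among them were also APC, higher on day 30 by 0.95 (adjusted p = 0.0059), and AXIN2, lower on day 30 by -0.24 (adjusted p = 0.037). Both differences are on the scale of log2(FPKM + 1), which shrinks the change of genes at such levels.

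The calls by day depended on how the GC content of transcripts was handled. Transcript GC content is 63.5% for AXIN1 and 57.2% for TCF7, the highest of the 6 members tested, and 44.7% for CTNNB1 and 45.6% for TCF7L2, the lowest. After the trend with GC content was subtracted from each library, the difference was 0.031 for AXIN1 (adjusted p = 0.89) and 0.20 for TCF7 (adjusted p = 0.14) in the same limma model. In that setting CTNNB1 (-1.02, adjusted p = 0.012) and TCF7L2 (-0.60, adjusted p = 0.0048) were called lower on day 30 and LEF1 (0.64, adjusted p = 0.027) was called higher. There, 6025 of 10865 genes were called, so 3 of 6 members was no larger a share than that of all genes. MYC kept a small difference (-0.12, adjusted p = 0.48 in limma). The part of GC content in these differences was not tested beyond this.

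**Figure D2:**
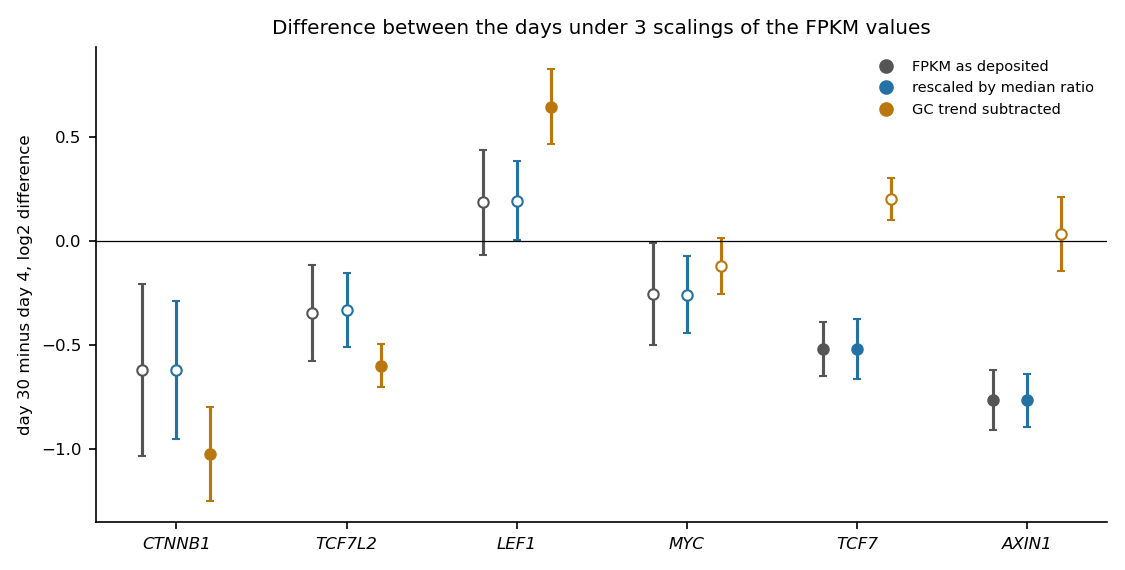
Log2 difference of day 30 minus day 4 for the 6 tested members (vertical axis, limma coefficient with its SE) from FPKM as deposited, after rescaling each library and after subtracting the GC trend. Filled points have an adjusted p under 0.05. Rescaling left every point near its place, while subtracting the GC trend brought AXIN1 to 0.031 and moved CTNNB1 to -1.02.

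The calls by day also changed with the libraries used. Without either NCD38 library, CTNNB1 (-1.09), TCF7L2 (-0.59) and MYC (-0.54) were called lower on day 30 together with AXIN1 and TCF7, with adjusted p-values in limma between 0.021 and 0.028 for those 3 genes. TCF7 was no longer called when a library of DMSO, NCD38-β2P4 or NCD38-β2PIPP of either day was left out (adjusted p = 0.054 to 0.11). AXIN1 was called in each of these fits, in which 4567 to 7108 of all 10865 genes were called. The highest counts of genes came without an NCD38 library (7108 for day 30 and 7102 for day 4).

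The question whether an inhibitor shifts these genes was put to the same limma fit, which takes the effect of a treatment as equal on both days. No member was called against DMSO with NCD38, NCD38-β2P4 or NCD38-β2PIPP, where 0.0368%, 0.0184% and 0.0184% of all genes were called. No member had an unadjusted limma p under 0.05 in these comparisons either. Of all 10865 genes, 145, 32 and 62 did, shares so small that finding none among 6 members does not set the members apart. A treatment effect that differs between the days enters the error of this fit, so the fit can miss it. With NCD38 the log2 difference to DMSO was -0.33 for CTNNB1 (95% interval -1.80 to 1.14), -0.34 for TCF7L2 (-1.16 to 0.48), -0.27 for LEF1 (-1.16 to 0.63) and -0.13 for MYC (-0.998 to 0.73). With NCD38-β2P4 it was 0.38 for CTNNB1 (-1.09 to 1.84), 0.32 for TCF7L2 (-0.50 to 1.14), 0.46 for LEF1 (-0.43 to 1.36) and 0.19 for MYC (-0.67 to 1.06). With NCD38-β2PIPP it was 0.20 for CTNNB1 (-1.27 to 1.66), 0.21 for TCF7L2 (-0.61 to 1.03), 0.34 for LEF1 (-0.55 to 1.24) and -0.0067 for MYC (-0.87 to 0.86). TCF7 and AXIN1 stayed within 0.15 of DMSO in all 3 comparisons, with intervals that reached at most 0.63 from 0. The intervals for CTNNB1 reach beyond a 2-fold change in both directions, so a change of that size was not detectable in this design.

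The 3 compounds were then compared with each other at the same dose and the same 2 times, in 3 pairs. For NCD38-β2P4 against NCD38, which differ by the polyamide with 4 pyrrole rings and its linker, 0.0092% of all genes were called and no member was. The log2 difference was 0.71 for CTNNB1 (95% interval -0.76 to 2.18), 0.73 for LEF1 (-0.16 to 1.63), 0.66 for TCF7L2 (-0.15 to 1.48), 0.33 for MYC (-0.54 to 1.19), 0.18 for TCF7 (-0.28 to 0.63) and -0.052 for AXIN1 (-0.56 to 0.46). LEF1 and TCF7L2 had the lowest unadjusted p-values of the members (0.091 and 0.093 in limma, adjusted p = 0.71 for both).

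For NCD38-β2PIPP against NCD38, 0.0184% of all genes were called and no member was. The log2 difference was 0.53 for CTNNB1 (95% interval -0.94 to 1.99), 0.61 for LEF1 (-0.28 to 1.51), 0.55 for TCF7L2 (-0.27 to 1.37), 0.13 for MYC (-0.74 to 0.99), 0.14 for TCF7 (-0.31 to 0.60) and -0.10 for AXIN1 (-0.61 to 0.41). Between the conjugates, NCD38-β2P4 minus NCD38-β2PIPP, which differ in 1 ring of the polyamide, 0.0276% of all genes were called. The members differed by 0.18 for CTNNB1 (95% interval -1.29 to 1.65), 0.12 for LEF1 (-0.78 to 1.01), 0.11 for TCF7L2 (-0.71 to 0.93), 0.20 for MYC (-0.67 to 1.07), 0.032 for TCF7 (-0.42 to 0.49) and 0.048 for AXIN1 (-0.46 to 0.56). For CTNNB1, LEF1 and MYC the intervals leave room for a 2-fold difference between the conjugates, so they are not shown to act alike.

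Within a single day there was 1 library a condition and no test, and a ratio of at least 2-fold in log2(FPKM + 1) to the DMSO library of the same day was counted. Of the 6 members, none was past 2-fold on day 30 with NCD38, NCD38-β2P4 or NCD38-β2PIPP, against 1.66%, 1% and 1.17% of all genes. On day 4, CTNNB1 was past 2-fold with NCD38, where 5.41% of all genes were. None of the 6 was past it with NCD38-β2P4 or NCD38-β2PIPP, where 1.91% and 11.2% of all genes were. APC and AXIN2 are below the filter. Without the added 1, APC was at 0.574, 1.02 and 2.85 times DMSO on day 4 and AXIN2 at 0.439, 1.28 and 1.40 (NCD38, NCD38-β2P4, NCD38-β2PIPP).

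On day 4 the tested members with NCD38 lay below DMSO in every case. Of all genes, only 31.7% lay above DMSO in that library, at a median log2 ratio of -0.21. The folds that follow are ratios of FPKM without the added 1. On this scale TCF7L2 was also past 2-fold with NCD38, while its log2 ratio of FPKM + 1 was -0.78. The share of all genes past 2-fold was not counted on this scale. With 0.1 added in place of 1, 1669 of 10865 genes were past it with NCD38. The fold to DMSO was 0.487 for CTNNB1, 0.459 for TCF7L2, 0.572 for LEF1, 0.678 for MYC, 0.850 for AXIN1 and 0.934 for TCF7. With the conjugates it was 1.41 and 1.82 for CTNNB1, 1.34 and 1.35 for TCF7L2, 1.65 and 1.67 for LEF1, and 1.23 and 1.23 for MYC (NCD38-β2P4 and NCD38-β2PIPP in this order). TCF7 and AXIN1 stayed between 0.958 and 1.10 of DMSO with the conjugates. The order NCD38 below DMSO below each conjugate held for 5 of the 6 members, all but AXIN1, and for 48.6% of all genes. Among the lowest 20% of genes by GC content it held for 84.3%. None of the tested members belongs to that group, so this share is not their background. They lie between percentile 33.5 (CTNNB1) and 92.7 (AXIN1) of GC content among expressed genes.

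On day 30 the ratios were smaller and some had the other sign. MYC was at 1.23 times DMSO for NCD38, 1.06 for NCD38-β2P4 and 0.803 for NCD38-β2PIPP. CTNNB1 was at 1.28, 1.22 and 0.722 in the same order. For both genes NCD38 was the highest and NCD38-β2PIPP the lowest library of day 30. TCF7L2 and LEF1 were highest with NCD38-β2P4, at 1.35 and 1.26 times DMSO, and the 95% counting half-width of these log2 ratios was 0.32 and 0.20. Counting intervals cover counting error only and not the spread between cultures.

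**Figure D3:**
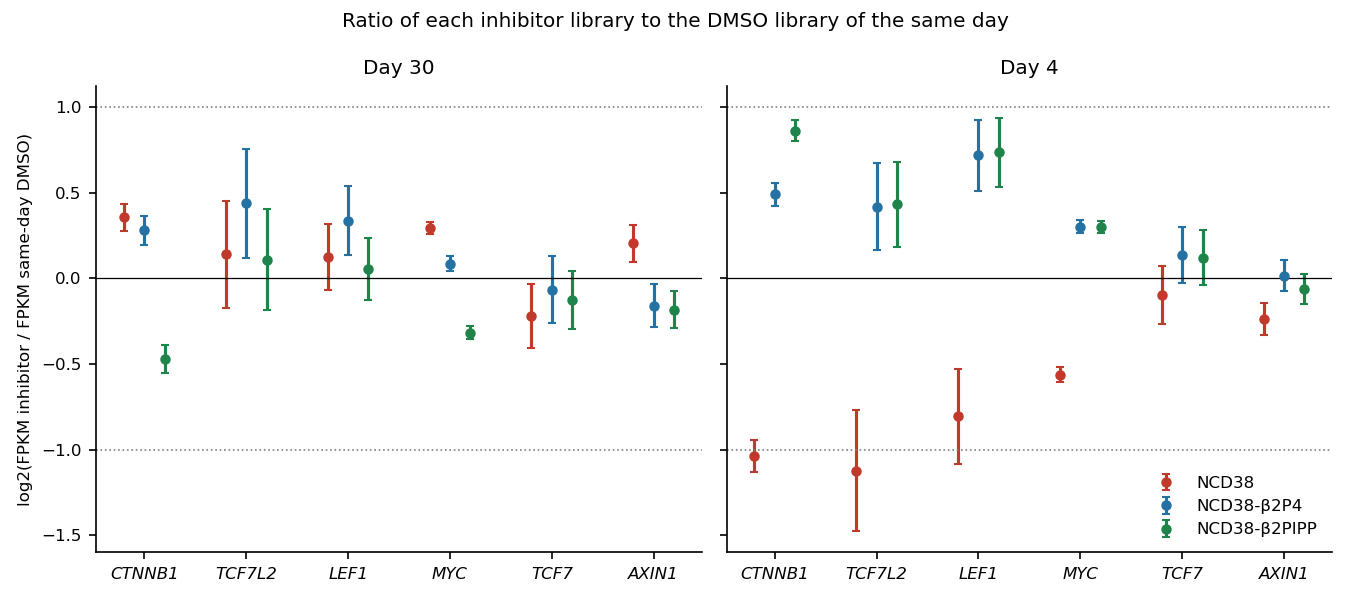
Log2 ratio of FPKM to the DMSO library of the same day (vertical axis, no pseudocount) for the 6 tested members on day 30 (left) and day 4 (right), 1 point an inhibitor library, with bars for the 95% counting interval from estimated fragments. Dotted lines mark 2-fold. CTNNB1 and MYC with NCD38 lie above 0 on day 30 and below it on day 4.

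Subtracting the trend with transcript GC content made some day 4 ratios of the members smaller, and left others about as they were or made them larger. The part of GC content in these ratios was not tested. After the trend with GC content was subtracted, the log2 ratio with NCD38 moved from -1.01 to -0.37 for CTNNB1, from -0.78 to -0.13 for TCF7L2 and from -0.56 to -0.053 for MYC, and no member was past 2-fold. For LEF1 it moved from -0.64 to -0.38 with NCD38, and it kept 0.61 with NCD38-β2P4 (from 0.63) and 0.59 with NCD38-β2PIPP (from 0.64). For AXIN1 with NCD38 the ratio moved the other way, from -0.23 to -0.49. With NCD38-β2PIPP the ratio of TCF7L2 turned from 0.35 to -0.15.

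**Figure D4:**
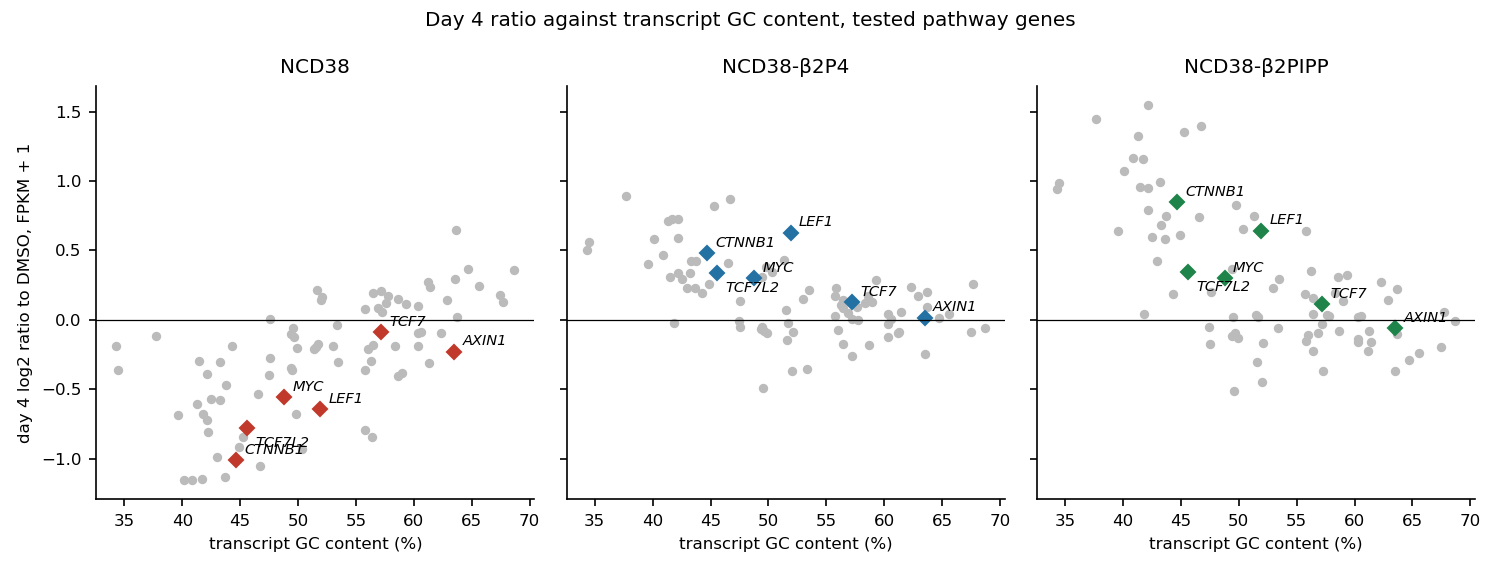
Log2 ratio of FPKM + 1 to DMSO on day 4 (vertical axis) against the GC content of the transcript in percent (horizontal axis), for the 6 tested members (diamonds) and 79 other tested genes of the Wnt and MYC lists (grey), 1 panel an inhibitor. Low GC content goes with negative ratios in the NCD38 panel and with positive ratios in the NCD38-β2PIPP panel, and the members lie within the cloud of pathway genes.

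Sequences before the RefSeq start of 3 members are shown because the polyamides read bases: CTNNB1 and LEF1, which had high ratios with both conjugates on day 4, and AXIN1, which did not. Each run is the 250 bases before the start on the strand of the gene, 5′ to 3′, from the RefSeq table of GRCh38.p14 (a different build from the hg19 positions above), and capitals mark runs of at least 6 A or T bases. CTNNB1 is at chr3:41199255-41199504 (plus strand), LEF1 at chr4:108166302-108166551 (minus strand) and AXIN1 at chr16:352724-352973 (minus strand).
CTNNB1: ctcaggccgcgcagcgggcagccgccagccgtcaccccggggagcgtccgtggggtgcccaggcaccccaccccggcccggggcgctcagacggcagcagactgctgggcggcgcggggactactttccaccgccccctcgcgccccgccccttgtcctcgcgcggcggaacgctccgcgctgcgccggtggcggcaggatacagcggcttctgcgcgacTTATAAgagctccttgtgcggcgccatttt
LEF1: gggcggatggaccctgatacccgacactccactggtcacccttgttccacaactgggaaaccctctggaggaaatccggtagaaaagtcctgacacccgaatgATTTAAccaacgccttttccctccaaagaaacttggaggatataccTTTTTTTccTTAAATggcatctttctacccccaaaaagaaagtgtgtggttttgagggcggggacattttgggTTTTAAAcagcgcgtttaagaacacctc
AXIN1: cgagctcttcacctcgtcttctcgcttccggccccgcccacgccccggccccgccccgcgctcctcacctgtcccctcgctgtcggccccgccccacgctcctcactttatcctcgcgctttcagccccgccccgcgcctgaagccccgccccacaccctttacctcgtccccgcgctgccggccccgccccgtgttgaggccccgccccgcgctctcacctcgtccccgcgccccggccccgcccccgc

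LEF1 held 4 such runs with 26 bases, CTNNB1 held 1 run of 6 bases and AXIN1 held none. Counted as overlapping windows of 6 A or T bases, LEF1 held 6 and CTNNB1 1. TCF7L2, not printed, held 4, 14 and 3 windows at its starts and was at 1.34 and 1.35 times DMSO with the conjugates on day 4. A link between these letters and the ratios was not tested. The GC content of the 250 bases was 47.6% for LEF1, 74.4% for CTNNB1 and 77.6% for AXIN1. Of the 10 members, 6 matched the table, with 10 start sites, and 7 of these 10 held at least 6 A or T bases in a row, as did 58.7% of all 35116 promoters in the table. CG between 2 A or T bases on each side was found at 1 of the 10 starts, a start of TCF7L2, and in 13.9% of all promoters. The TCF motif, searched as CTTTGAA and CTTTGAT on both strands, was found at none of the 10 starts and in 5.94% of all promoters. Matches describe letters in this window and are not binding sites.

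The rest of the pathway was read from gene lists ordered by role. The background for the counts called by day in every list is that of all 10865 genes. Of these, 3277 (30.2%) were called higher on day 30 and 3445 (31.7%) higher on day 4. After the GC trend was subtracted, the counts over all genes were 3109 and 2916. Of 21 Wnt ligands and secretion genes, 3 were expressed at a mean of at least 1 FPKM and 8 were listed at 0 in all libraries. The only ligand among those 3 was WNT11, a ligand of non-canonical signalling, at up to 1.69 FPKM on day 30 and up to 1.79 on day 4. PORCN, which acylates Wnt ligands, was at 4.81 to 6.34 on day 30 and 7.12 to 9.20 on day 4 and was not called (limma adjusted p = 0.059). WLS, which carries Wnt ligands to the surface, was lower on day 30 by a log2 difference of -0.85 (limma adjusted p = 0.0062), and kept this difference after the GC trend was subtracted (-0.84).

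Of 23 receptors and genes of the R-spondin arm, 7 were tested, with 1 called higher on day 30 and 1 higher on day 4. FZD6, a Frizzled receptor, was at 4.62 to 7.76 FPKM on day 30 and 0.745 to 4.15 on day 4 (log2 difference 1.41, limma adjusted p = 0.0092), and the difference was -0.021 after the GC trend was subtracted. LRP5, a Wnt co-receptor, was at 4.82 to 7.75 on day 30 and 18.6 to 21.1 on day 4 (-1.60, limma adjusted p = 0.00086), and it was still called lower on day 30 after that subtraction (-0.81). RYK, a receptor with a tyrosine kinase fold, was not called as deposited (0.96, limma adjusted p = 0.086) and was called higher on day 30 after rescaling (0.97, limma adjusted p = 0.042) and after the GC trend was subtracted (0.70, limma adjusted p = 0.031). RNF43, a ubiquitin ligase that removes Frizzled from the surface, reached at most 0.0126 FPKM, while ZNRF3, its partner in that role, was at 1.36 to 3.30. Of the R-spondin receptors LGR4 and LGR6, the highest value was 0.235 FPKM, beside LGR5 at 0.

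Of 14 extracellular and membrane inhibitors, only KREMEN1 and KREMEN2, receptors of the DKK inhibitors, were tested. Both were called lower on day 30 (limma adjusted p = 0.031 and 0.040), KREMEN2 not after rescaling (limma adjusted p = 0.081), and their differences were 0.067 and 0.14 after the GC trend was subtracted. A total of 6 inhibitors, SFRP1, SFRP2, SFRP4, SFRP5, WIF1 and APCDD1, were listed at 0 in all libraries.

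Of 19 genes of cytoplasmic signalling and β-catenin turnover, 17 were tested, of which 2 were called higher on day 30 and 9 higher on day 4 (2 and 5 after the GC trend was subtracted). Their median difference was -0.50, against -0.017 for all genes, and it was -0.077 against 0.0096 after that subtraction. GSK3A, a kinase that marks β-catenin for degradation, was at 24.3 to 35.7 FPKM on day 30 and 66.4 to 88.0 on day 4 (-1.29, limma adjusted p = 0.00055). SIAH1, a ubiquitin ligase that can act on β-catenin, was at 9.55 to 11.5 on day 30 and 1.16 to 5.58 on day 4 (1.53, limma adjusted p = 0.0073), and both were still called after subtraction with smaller differences (-0.59 for GSK3A and 0.57 for SIAH1). TNKS2, a tankyrase that destabilises axins, was called higher on day 30 (0.93, limma adjusted p = 0.029) but was at -0.033 after subtraction. CSNK1A1, the kinase that primes β-catenin, was 2-fold lower than DMSO with NCD38 on day 4, with a log2 ratio of -1.15, and -0.69 after subtraction.

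Of 19 nuclear partners of β-catenin, 16 were tested, with 2 called higher on day 30 and 9 higher on day 4, at a median of -0.56 (-0.027 after the GC trend was subtracted). The coactivators BCL9L (-1.11, limma adjusted p = 0.0032) and PYGO2 (-1.08, limma adjusted p = 0.0011) were called lower on day 30. After subtraction BCL9L was no longer called (-0.32, limma adjusted p = 0.21) and PYGO2 was at -0.36 (limma adjusted p = 0.027). CDC73, a partner in transcription elongation, was called higher on day 30 (1.02, limma adjusted p = 0.023) and turned to -0.56 after the GC trend was subtracted, where 2 were called higher on day 30 and 3 higher on day 4.

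Of 18 Wnt target genes, 6 were tested and 4 were listed at 0 in all libraries, and 3 were called, all higher on day 4. After subtraction 3 were called higher on day 4 too, but not the same genes, since NKD1 was no longer called. EPHB2, a receptor that positions crypt cells, was at 3.75 to 5.15 FPKM on day 30 and 10.5 to 12.3 on day 4 (-1.22, limma adjusted p = 0.0013) and at -0.50 after subtraction. NKD1, a feedback inhibitor, was called lower on day 30 (-0.51, limma adjusted p = 0.021) and was at -0.051 after subtraction (limma adjusted p = 0.72). CCND1, the cyclin of the G1 phase, was not called by day, and with NCD38 on day 4 its log2 ratio to DMSO was -0.93 (-0.59 after subtraction). The median of the list was -0.44 and that of the 6 members was -0.43, and they were -0.19 and -0.046 after subtraction.

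Among 11 partners and relatives of MYC, 10 were tested, with 3 called higher on day 30 and 2 higher on day 4. MXI1, a repressor that competes for the MYC partner MAX, was at 6.01 to 10.0 FPKM on day 30 and 1.03 to 3.73 on day 4 (1.57, limma adjusted p = 0.0019). MXD4, another such repressor, reached at most 13.6 on day 30 and stood at 22.6 to 36.4 on day 4 (-1.12, limma adjusted p = 0.0021), and after the GC trend was subtracted both were still called, MXI1 at 1.17 and MXD4 at -0.32 (limma adjusted p = 0.042). MYCBP, a MYC binding protein, was called higher on day 30 (1.11, limma adjusted p = 0.0098) and was at -0.10 after subtraction. MGA, a large MAX partner, had its highest ratio with NCD38-β2PIPP on day 4 (0.99, and 0.33 after subtraction). MYCN was listed at 0 in all libraries.

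All 20 MYC target genes were tested, with 5 called higher on day 30, 6 higher on day 4 and 9 not called, at a median of -0.018 (0.18 after subtraction, with 5 called each way). The genes higher on day 30 included NPM1, a nucleolar chaperone, at 1604 to 2037 FPKM against 75.5 to 290.5 (3.57, limma adjusted p = 0.0006), and GNL3, a nucleolar GTPase, at 97.1 to 104 against 4.13 to 23.7 (3.20, limma adjusted p = 0.0014). EIF4E, which binds the messenger cap, was also called higher on day 30 (1.65, limma adjusted p = 0.0061) and was at 0.069 after subtraction, while NPM1 (2.46) and GNL3 (2.24) were still called. With NCD38-β2PIPP on day 4, 5 of the 20 targets (NCL, NPM1, TFRC, GNL3 and HSPD1) were at least 2-fold above DMSO, as were 10.3% of all genes. After rescaling these were 3 of 20 and 6.14%, and after the GC trend was subtracted 1 of 20 (NCL) and 1.21%.

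**Figure D5:**
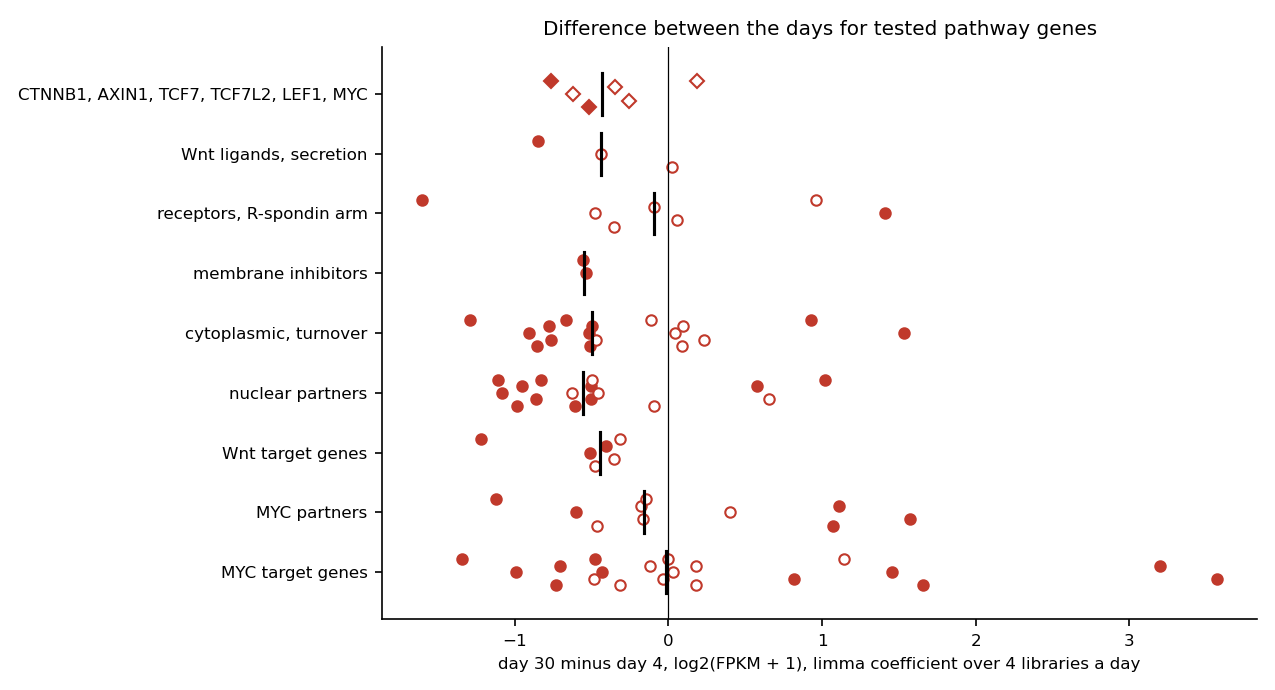
Difference of day 30 minus day 4 in log2(FPKM + 1) (horizontal axis, limma coefficient) for the tested genes of each list, with the 6 members as diamonds in the top row, filled points for an adjusted p under 0.05 and a bar at the median of each list. With FPKM as deposited, medians of the nuclear and cytoplasmic lists lie near -0.5, and the MYC targets spread from -1.34 to 3.57.

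Over the treatment comparisons no gene of any of these lists was called in limma. Of the unadjusted limma p-values over the 6 comparisons, 2 in the cytoplasmic list, 2 among the MYC partners and 1 among the MYC targets were under 0.05. These lists held 17, 10 and 20 tested genes, each in 6 comparisons. Of all 10865 genes, 145, 32 and 62 were under 0.05 for NCD38, NCD38-β2P4 and NCD38-β2PIPP against DMSO. For NCD38-β2P4 and NCD38-β2PIPP against NCD38 they were 352 and 692, and between the conjugates 34. So few p-values do not set the lists apart.

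The genes with the profile most like that of a member were found from the root mean square distance of centred log2(FPKM + 1) over the 8 libraries. For MYC these were NDEL1 (0.058), GSPT1 (0.068) and ARF4 (0.071), where the median distance to all genes was 0.53. For CTNNB1 they were CTCF (0.11), MYO10 (0.11) and LAP3 (0.11), at a median of 0.71. For AXIN2 they were PHKA2 (0.034), STAT5B (0.059) and C12orf41 (0.060), at a median of 0.48. The profile of AXIN2 is nearly flat on this scale because of its low level, so its nearest genes are those that vary little.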

How the data were processed

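RNA of 8 RKO cultures was sequenced from stranded mRNA libraries. The authors aligned reads with TopHat, estimated expression with Cufflinks and deposited FPKM values per gene. The submitters' processing notes list HISAT2 2.2.1.0, BWA 0.5.9 and bedtools 2.20.1, and hg19, with no roles. Counts were not part of the table, and 90 of 25594 entries with a repeated name were left out. The study's methods give 2 mM for day 4 where the labels give 2 µM. The other samples of the series (ChIP-seq) were not analysed here.

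Genes with a mean FPKM of at least 1 (10865) were tested on log2(FPKM + 1) with limma 3.58.1 (R 4.3.3, trend), day and treatment as terms, 3 residual degrees of freedom, 2-sided, adjusted by Benjamini-Hochberg at 0.05. The scripts were tested on simulated data. The p-values measure the spread between these libraries only. Depth was estimated from FPKM values that pile up at 1 fragment, with GENCODE 44 transcript lengths less 200 nt, and it sets the counting intervals and the level of 3 fragments. GC content was known for 91.1% of tested genes, and its trend was taken as the median of 20 bins. A ratio adds 1 to FPKM, which understates the change of low genes.

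The members, lists and tests were chosen with earlier results of these data known. From each list the 3 tested genes with the largest size of the difference between days and the 1 with the largest within-day ratio were named, and further genes named were chosen after their values were seen. Alternatives changed the pseudocount, the filter, the scaling, the GC trend, the DMSO library, the fold and the libraries used. Promoter sequences come from RefSeq (GRCh38.p14). Python 3.11.15 was used for the rest.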

Additional observations from a re-analysis of the deposited data

Results flagged for a closer look

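The ratio of an inhibitor to the DMSO library of the same day had opposite signs on the 2 days, each beyond its counting interval, for 5 results of the tested members. Each rests on 1 library a condition, and the difference between the days was not tested. With NCD38, CTNNB1 had a log2 ratio of 0.35 on day 30 and -1.01 on day 4, a difference of 1.36. MYC had 0.29 and -0.56, a difference of 0.85, and AXIN1 had 0.20 and -0.23, a difference of 0.42. With NCD38-β2PIPP the order of the days was the other way round for CTNNB1, at -0.45 on day 30 and 0.85 on day 4 (difference -1.30), and for MYC, at -0.31 and 0.30 (difference -0.62). After the GC trend was subtracted, the day 4 ratio of MYC was -0.053 with NCD38 and 0.036 with NCD38-β2PIPP, while that of CTNNB1 was -0.37 and 0.31. That of AXIN1 with NCD38 was -0.49. Rescaling raised the NCD38 library of day 4 by 0.32 on the log2 scale and changed the DMSO library of day 4 by -0.0098. That step is larger than the size of the AXIN1 ratio of -0.23, so its opposite sign depends on the scaling.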

How the results depend on the processing

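Of 10865 genes, 6025 to 7277 were called by day over the settings that kept this set, and 4567 to 7108 with 1 library left out. Without a filter, 7827 of 17976 were called. The members called were AXIN1 and TCF7 in all settings except no filter (4 called, APC and AXIN2 in addition), the GC trend subtracted (CTNNB1, TCF7L2 and LEF1 instead) and leaving out 1 library (1 to 5 called). Of genes called by day, 48.8% were higher on day 30, and 33.8% where FPKM of at least 1 in all libraries was required (4832 of 7915 called). No member was called in a treatment comparison in any setting or with any library left out. The counts of genes called in those 6 comparisons (in the order of NCD38, NCD38-β2P4 and NCD38-β2PIPP against DMSO, NCD38-β2P4 and NCD38-β2PIPP against NCD38, and NCD38-β2P4 against NCD38-β2PIPP) were 4, 2, 2, 1, 2 and 3. They were 0 in all 6 where FPKM of at least 1 in all libraries was required, and without a filter they were 2 and 1 for the first pair and 0 for the last 3. With a pseudocount of 0.1 they were 4 for NCD38-β2P4 against DMSO, 1 for NCD38-β2PIPP against DMSO and 2 for NCD38-β2P4 against NCD38. Leaving out 1 library gave 0 to 21, 0 to 20, 0 to 27, 0 to 13, 0 to 27 and 0 to 27.

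Members past 2-fold with NCD38 on day 4 numbered 1 as deposited, 2 with a pseudocount of 0.1, 0 after rescaling, 0 with the GC trend taken out, 0 against the other day's DMSO library and 3 at 1.5-fold. Over all 10865 genes the counts were 588, 1669, 283, 200, 5734 and 2670 in the same order. With NCD38-β2P4 on day 4 there was 1 against the DMSO library of day 30 and 1 at 1.5-fold, with NCD38-β2PIPP on day 4 there was 1 and there were 2, and with NCD38-β2PIPP on day 30 there was 1 against the DMSO library of day 4. Over all genes the counts were 3939 and 1037, 3276 and 3151, and 4623, so these member counts do not set the members apart. Members whose days did not overlap numbered 2 after rescaling too, a step that raised the NCD38 library of day 4 by 0.32 on the log2 scale. Differences between days turned to 0.031 for AXIN1 and 0.20 for TCF7 with the GC trend subtracted.

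Among differences between treatments that had not been called, the sign turned as follows. With the GC trend subtracted, MYC had 0.098 with NCD38 against DMSO, CTNNB1 had -0.067 and TCF7L2 -0.027 with NCD38-β2PIPP against DMSO, AXIN1 had 0.13 and MYC -0.0037 with NCD38-β2P4 against NCD38, and CTNNB1 had -0.023, AXIN1 0.089 and MYC -0.24 with NCD38-β2PIPP against NCD38. After rescaling, AXIN1 had 0.13 and MYC 0.019 with NCD38 against DMSO, TCF7 had -0.024 and -0.095 with NCD38-β2P4 and NCD38-β2PIPP against DMSO and -0.022 and -0.094 with these against NCD38, and MYC had -0.13 with NCD38-β2PIPP against NCD38. With a pseudocount of 0.1, TCF7 had -0.00054 with NCD38-β2PIPP against DMSO. The cause was not tested. With 1 library left out, the difference between treatments rests on 1 day, and its sign turned for these members. For NCD38 against DMSO the range was -1.26 to 0.60 for CTNNB1, -0.27 to 0.24 for AXIN1, -0.83 to 0.15 for TCF7L2, -0.80 to 0.26 for LEF1 and -0.70 to 0.43 for MYC. For NCD38-β2P4 against DMSO the range was -0.20 to 0.067 for AXIN1 and -0.052 to 0.12 for TCF7. For NCD38-β2PIPP against DMSO the range was -0.65 to 1.04 for CTNNB1, -0.084 to 0.087 for TCF7, -0.066 to 0.49 for TCF7L2, -0.023 to 0.71 for LEF1 and -0.42 to 0.41 for MYC. For NCD38-β2P4 against NCD38 the range was -0.22 to 1.64 for CTNNB1, -0.31 to 0.21 for AXIN1 and -0.24 to 0.89 for MYC. For NCD38-β2PIPP against NCD38 the range was -0.40 to 1.46 for CTNNB1, -0.36 to 0.16 for AXIN1 and -0.44 to 0.69 for MYC. For NCD38-β2P4 against NCD38-β2PIPP the range was -0.66 to 1.02 for CTNNB1, -0.087 to 0.18 for AXIN1, -0.031 to 0.096 for TCF7, -0.17 to 0.39 for TCF7L2, -0.25 to 0.49 for LEF1 and -0.21 to 0.61 for MYC. For LEF1 between days the range was -0.081 to 0.37. The comparison of days was paired by treatment through the treatment term. With that term left out, the members called by day were still AXIN1 and TCF7.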

Other observations

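Among markers of colorectal epithelium, EPCAM, a surface adhesion protein, was at 3.94 to 6.53 FPKM on day 30 and 0.0922 to 0.867 on day 4 (log2 difference 2.11, limma adjusted p = 0.00055), and it was still called after the GC trend was subtracted (1.71). KRT8, a keratin of simple epithelia, was 2-fold lower than DMSO with NCD38 on day 30, at a log2 ratio of -1.12 and of -1.11 after that subtraction. CDX2, the intestinal transcription factor, was not called as deposited (-0.36, limma adjusted p = 0.065) and turned to 0.42 after the GC trend was subtracted, called higher on day 30 (limma adjusted p = 0.012). In that setting all 4 tested markers of the list were called higher on day 30, against 1 as deposited. Over all 10865 genes, 3109 were called higher on day 30 in that setting and 3277 as deposited.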
